A study of Mus musculus with 8 samples.

Results

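The Bex genes encode small, largely unstructured adaptor proteins that were named for their expression in the brain and that lie together on the X chromosome of mammals. The members described here were Bex1, Bex2, Bex3 and Bex4, found by taking every probe set whose annotated symbol was one of these names. This gave 4 probe sets, 1 for each of the 4 genes, out of 18193 genes measured. The family was picked with the results of these arrays in view, since Bex1 was known to be far lower in tumour lines, so the members' own differences are given as a description with standard errors (SE) and no test.

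JoMa1 is a line of neural crest precursors from the mouse, and 8 Affymetrix arrays measured it and cells derived from it. Parental JoMa1 was on 3 arrays, JoMa1 carrying the label of a GFP control transfectant on 1, and lines from tumours that JoMa1 transfected with MYCN had formed in immunocompromised mice on 4, with the numbers 3 to 6 in the labels. All groups share the JoMa1 background, which is immortalised by a tamoxifen-activated MYC fusion protein, and the labels do not say which cultures received tamoxifen. They call the 4 tumours independent but do not say whether they came from 1 transfected stock, and the parental arrays are not stated to be separate cultures, so that p-values measure the spread between these arrays, which may be technical.

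Levels are log2 values from RMA, so that a difference of 1 is a doubling, and ± is the SD among arrays within a group. Array medians ran from 6.26 to 6.30. The 3 bacterial trpnX controls, which no mouse transcript should light, read 3.56 to 4.47 over all arrays, and a value in that range carries little or no signal. The brightest Mycn probe set read 7.42 ± 0.12 (n = 3) in parental arrays, 11.73 in the array labelled GFP-transfected and 14.17 ± 0.08 (n = 4) in tumour lines. A second probe set went the opposite way, reading 8.13 ± 0.11, 4.33 and 4.60 ± 0.07 in the same order, and the remaining one differed little (5.76 ± 0.18, 5.88 and 6.07 ± 0.16). Which of them detects the transfected sequence was not tested. On both probe sets that changed, the array labelled GFP-transfected moved from parental cells in the direction of the tumour lines, which goes against its label, and each direction drawn from it below has that limit. Of 12 neural crest markers, 2 rose and 2 fell in tumour lines against parental cells (33.3%, beside 36.0% of all genes called by limma at an adjusted p under 0.05). Parental cells read above the array medians for the crest genes Snai2 (11.55 ± 0.08), Pax3 (10.55 ± 0.09), Tfap2b (9.82 ± 0.15), Nes (9.44 ± 0.09), Twist1 (9.31 ± 0.14), Msx1 (8.09 ± 0.09) and Sox9 (7.97 ± 0.08). Sox10 read 7.34 ± 0.13, not far from the leukocyte gene Csf1r (7.05 ± 0.13), so that its signal is uncertain. Foxd3 (4.59 ± 0.16), Ednrb (5.13 ± 0.10), Msx2 (5.64 ± 0.07) and Tfap2a (5.66 ± 0.17) were low. Msx1 (1.05, SE 0.19) and Snai2 (0.53, SE 0.12) rose in tumour lines, and Tfap2b (-5.20, SE 0.13) and Pax3 (-1.17, SE 0.18) fell. Another probe set of Msx1 differed by only 0.38 (limma adjusted p = 0.0314), and the mean of both by 0.72.

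BEX proteins are known as adaptors between receptors and the cell interior. BEX1 and BEX3 bind the intracellular part of the neurotrophin receptor p75 (gene Ngfr), through which BEX3, also called NADE, can trigger cell death, and BEX1 has been tied to the choice between dividing and differentiating in neural precursors. BEX2 has been found in a DNA-binding complex with the LIM protein LMO2, and BEX4 with tubulin and the deacetylase SIRT2. Bex1 was first described as Rex3, a transcript that falls when embryonal carcinoma cells are treated with retinoic acid.

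The promoters of the family are printed first because they sort the 4 genes into near-identical pairs. The probe sets of a pair read differently on the arrays. That of Bex4 never rose above the controls, so it cannot show whether Bex4 behaved unlike Bex1. The sequences are those of RefSeq for assembly GRCm38.p6, which held all 4 genes. Each run starts 250 bases before the gene start and ends 20 bases after it, 5′ to 3′ on the gene's own strand. Capitals mark the motifs CACGTG (E-box, the letters that MYC proteins with MAX and other factors of their class can bind), TGACGCA (similar to a cyclic AMP response element) and GGGCGG (GC box), searched on both strands. The Bex1 run lies at chrX:136215494-136215763 on the minus strand, Bex4 at chrX:136138746-136139015 on the plus strand, Bex2 at chrX:136068217-136068486 on the minus strand and Bex3 at chrX:136270003-136270272 on the plus strand.
Bex1: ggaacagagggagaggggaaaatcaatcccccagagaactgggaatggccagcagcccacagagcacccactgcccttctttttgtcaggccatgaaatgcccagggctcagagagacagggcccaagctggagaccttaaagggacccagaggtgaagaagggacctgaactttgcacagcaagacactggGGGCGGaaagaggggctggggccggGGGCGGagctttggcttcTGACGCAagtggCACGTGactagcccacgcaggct
Bex4: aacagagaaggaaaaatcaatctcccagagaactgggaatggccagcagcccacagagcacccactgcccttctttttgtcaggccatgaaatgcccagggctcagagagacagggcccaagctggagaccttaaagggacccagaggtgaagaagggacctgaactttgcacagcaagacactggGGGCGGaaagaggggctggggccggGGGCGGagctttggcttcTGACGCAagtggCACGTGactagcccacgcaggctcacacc
Bex2: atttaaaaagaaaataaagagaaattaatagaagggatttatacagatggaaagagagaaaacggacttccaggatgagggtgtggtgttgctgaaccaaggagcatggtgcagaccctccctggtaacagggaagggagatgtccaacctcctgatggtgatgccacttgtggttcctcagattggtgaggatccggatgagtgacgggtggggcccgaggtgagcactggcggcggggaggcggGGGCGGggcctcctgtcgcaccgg
Bex3: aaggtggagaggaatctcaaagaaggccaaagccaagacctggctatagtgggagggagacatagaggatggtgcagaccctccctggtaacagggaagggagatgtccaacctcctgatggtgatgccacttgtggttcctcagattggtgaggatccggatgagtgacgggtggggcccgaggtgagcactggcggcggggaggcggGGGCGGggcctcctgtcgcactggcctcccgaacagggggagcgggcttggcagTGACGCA

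In local alignments of the 300-base windows, which reach 50 bases past the gene start, Bex1 and Bex4 matched in 287 of 290 aligned columns (99.0%), with 3 mismatches and 0 gaps. Bex2 and Bex3 matched in 197 of 199 columns (99.0%). The 4 other pairs aligned over no more than 16 columns. Bex1 and Bex4 therefore have almost the same start region on opposite strands, and so do Bex2 and Bex3.

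Both Bex1 and Bex4 held the motif TGACGCA and the E-box 5 bases apart at the gene start. The E-box began at position -3 in Bex1 and -9 in Bex4, counted from the gene start with no position 0. In Bex3 the same motifs lay 7 bases apart just after the start, with the E-box at position 28, and in Bex2 neither was found in this window. The stretch of Bex2 that aligns with Bex3 runs to the last base of the Bex2 window and reaches base 263 of the Bex3 window, just before the Bex3 motifs begin. The matching letters of Bex2 lie past its window and were not analysed here. The stretch that holds both motifs is shown for Bex1 and for Bex3 (chrX:136270266-136270287, plus strand), to set the order and spacing side by side.
Bex1: TGACGCAagtggCACGTGac
Bex3: TGACGCAgggccctCACGTGac

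The E-box was present in 7.15% of the 32851 promoter windows of the table, TGACGCA in 2.12% and both in 0.234% (77 windows). The motifs were chosen after the Bex windows had been read, so these shares do not test their presence in Bex genes. GGGCGG was in 35.7%. Near-identical windows are copies of one sequence, so that Bex1 and Bex4 count as 1 instance here. Among the related Tceal genes and Bex6, 8 of 12 windows (66.7%) held the E-box, in Tceal1, Tceal3, Tceal5, Tceal6, Tceal7 and Tceal8, and those of Tceal5 held TGACGCA as well. The 12 windows came from 8 genes. Windows of 1 gene or of related genes are not independent, so this share is no test either. The Bex1 window had 61.3% G and C and 8 CpG pairs, beside medians of 52.7% and 7.0 over all windows. Its observed over expected ratio of CpG pairs was 0.29. That ratio was 0.33 in Bex4, 0.46 in Bex3 and 0.56 in Bex2, beside a median of 0.38 over all windows. A motif match describes the letters and does not show that a factor binds.

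Bex1 (probe set 1448595_a_at) had the largest difference of the 4 members. It read 12.97, 12.98 and 12.96 on parental arrays 1, 2 and 3, and 13.48 on the array labelled GFP-transfected. Tumour lines 3, 4, 5 and 6 read 3.67, 3.65, 3.70 and 3.87. The parental arrays lay within 0.02 of each other and all 4 tumour lines lay in the range of the trpnX controls, so that no tumour line kept a measurable Bex1 signal. The difference between tumour lines and parental cells was -9.24 (SE 0.07), a 606-fold lower mean. Because the tumour-line value is at the controls, the fold is better given as a bound. With the highest trpnX control of each array as the floor (4.34 to 4.47 in tumour lines), Bex1 was at least 376-fold lower in tumour lines than in parental cells and at least 536-fold lower than in the array labelled GFP-transfected. In bulk samples, fewer cells with a transcript and less transcript per cell cannot be told apart.

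The array labelled GFP-transfected stood above parental cells in Bex1 by 0.51 (SE 0.11), outside the parental range. It had no lower Bex1 although its brightest Mycn probe set was 4.31 (SE 0.12) above parental cells. Tumour lines were another 2.43 (SE 0.12) higher in Mycn than that array and differed from it by -9.75 (SE 0.11) in Bex1. On these 8 arrays a raised signal of the brightest Mycn probe set was thus found with a missing Bex1 signal in tumour lines and without it in the array labelled GFP-transfected. The Mycn probe set that went the opposite way differed from parental cells by -3.80 (SE 0.12) in that array and by -3.53 (SE 0.08) in tumour lines.

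**Figure D1:**
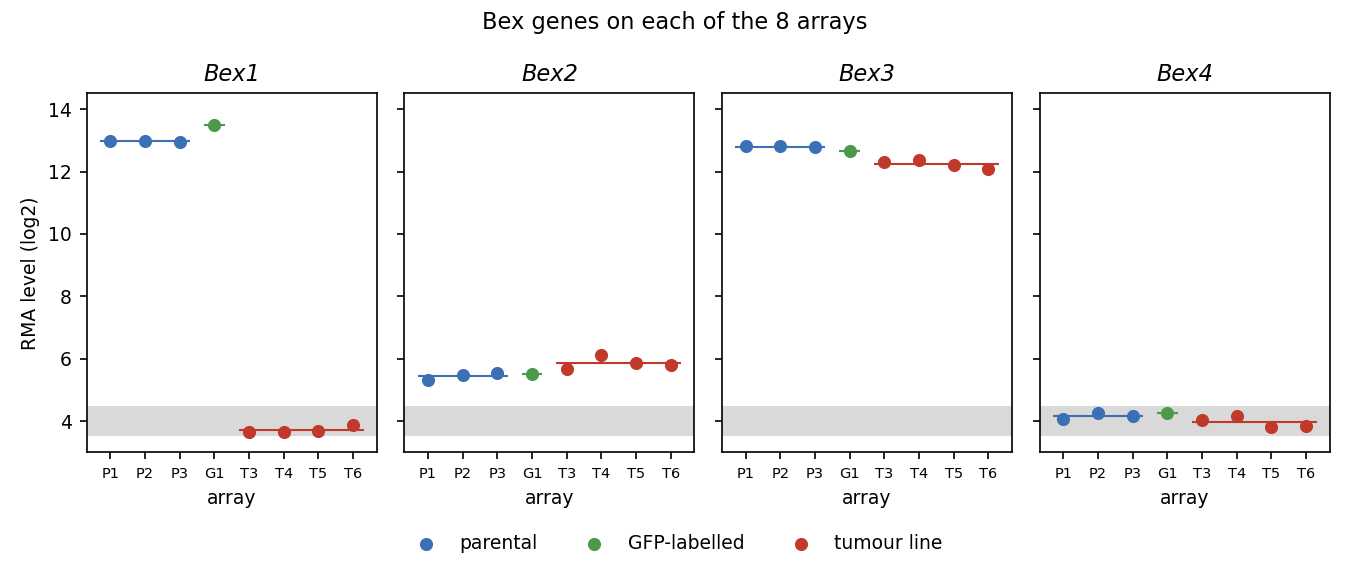
RMA level (log2) of each Bex gene (vertical axis) on each array (horizontal axis, P parental, G labelled GFP-transfected, T tumour line). Points are arrays, horizontal lines are group means and the grey band spans the trpnX controls, 3.56 to 4.47. Bex1 drops from 12.97 in parental cells into the grey band in all 4 tumour lines, Bex3 stays above 12 and Bex4 lies in the band in every group.

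Bex3, the p75-binding member with cell death activity, kept its high signal. Probe set 1428842_a_at read 12.82, 12.81 and 12.77 on the parental arrays, 12.67 on the array labelled GFP-transfected, and 12.29, 12.36, 12.21 and 12.09 in tumour lines 3, 4, 5 and 6. The groups did not overlap, and every tumour line lay below every parental array, as was the case for 23.2% of all genes. The difference was -0.56 (SE 0.08, 1.48-fold lower). The array labelled GFP-transfected lay between the groups, -0.13 (SE 0.12) from parental cells, with tumour lines -0.44 (SE 0.12) from it.

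Bex2, the member found with LMO2, read above the trpnX controls but below the array medians (6.26 to 6.30). The macrophage and leukocyte markers averaged 5.42 to 5.53 in parental arrays, so that readings at this level may hold little Bex2 transcript. Probe set 1417388_at read 5.32, 5.48 and 5.54 on the parental arrays and 5.51 on the array labelled GFP-transfected. Tumour lines 3, 4, 5 and 6 read 5.68, 6.12, 5.87 and 5.79, all above the parental arrays, as for 21.2% of all genes. The difference was 0.42 (SE 0.11, 1.33-fold higher), opposite in direction to Bex1 and Bex3. The array labelled GFP-transfected lay within the parental range (0.06, SE 0.17).

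Bex4, which shares its start region with Bex1, had no measurable signal in any group. Probe set 1428209_at read 4.08, 4.27 and 4.18 on the parental arrays, 4.26 on the array labelled GFP-transfected and 4.04, 4.16, 3.82 and 3.86 in tumour lines 3, 4, 5 and 6. Tumour line 4 overlapped the parental arrays, all values lay within the trpnX range, and the difference of -0.21 (SE 0.10) is one between values at the controls. The more distant relative Bex6, which lies outside chromosome X, read 3.41 to 3.66 in parental cells and 3.49 to 3.63 in tumour lines, also within or below the controls.

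The SD over the 4 tumour lines was 0.12 for Bex3 and 0.19 for Bex2, beside a median of 0.13 over all genes. Bex1 (0.10) and Bex4 (0.16) lay at the controls there, so that their SDs say little about how the transcripts varied. Of the 18193 genes, limma called 36.0%, with 16.6% higher and 19.4% lower in tumour lines. Since the members were picked on this comparison, nothing is read from where they stand in these shares.

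By Pearson correlation over the 8 arrays, among 66 genes that varied at least 0.5 times as much as Bex1 (SD 5.01), the closest were Col4a1 (r = 0.991), a basement membrane collagen gene, Msln (r = 0.988), which encodes the surface protein mesothelin, and Hoxa5 (r = 0.988), a homeobox gene of the body axis. The correlation mostly restates that all of them were high in parental cells and low in tumour lines. Col4a1 read 12.86 ± 0.09 and 5.76 ± 0.17, Msln 11.10 ± 0.19 and 6.19 ± 0.23, and Hoxa5 10.84 ± 0.08 and 6.02 ± 0.45. They differed from Bex1 in the array labelled GFP-transfected, which differed from the parental mean by -1.05 in Col4a1, -0.82 in Msln and -0.46 in Hoxa5, against 0.51 in Bex1. Their tumour-line levels also stayed above the trpnX range, unlike that of Bex1. The other members varied too little over the arrays (SD 0.17 to 0.30) for such a ranking.

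**Figure D2:**
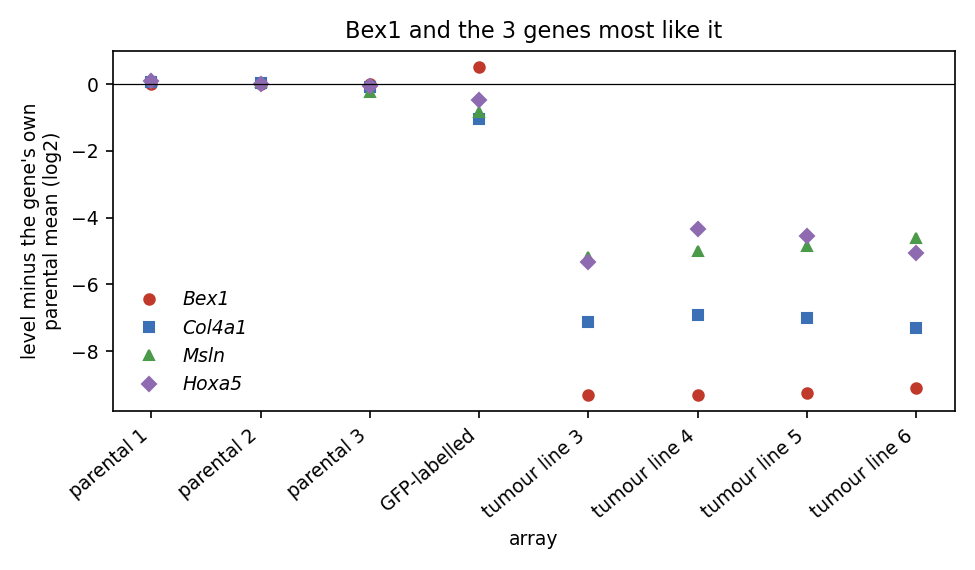
Level of Bex1, Col4a1, Msln and Hoxa5 minus each gene's own parental mean (vertical axis, log2) on each array (horizontal axis), 1 point per array. All 4 genes are low in the tumour lines, Bex1 at -9.31 to -9.09, and Bex1 alone of these 4 is above its parental mean in the array labelled GFP-transfected.

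The genes around the family were read to see whether the loss of Bex1 signal extended along the chromosome. Within 15 gene positions of a member on chromosome X lay 41 other genes of the RefSeq table, of which 12 were measured. Of these 12 neighbours, 2 rose and 1 fell in tumour lines (25.0%, beside 36.0% of all genes), with differences from -0.35 to 0.87 and a median of 0.10, beside 0.013 over all genes. Over all 618 measured genes of chromosome X, 113 rose and 88 fell (32.5%).

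The nearest measured genes on either side of Bex1 were not called. Tceal8, of the related transcription elongation factor A-like family, read 11.62 ± 0.05 in parental cells and 11.68 ± 0.12 in tumour lines (0.06, SE 0.08, limma adjusted p = 0.627). Tceal9 lies between Bex1 and Bex3 and read 13.49 ± 0.06 and 13.31 ± 0.16 (-0.18, SE 0.10, adjusted p = 0.205). Tceal7 was at the controls in both groups (4.06 ± 0.18 and 3.82 ± 0.12). These 3 were singled out for their position after their values were seen. No other measured gene in the window differed by more than 0.87 in size, while the difference of Bex1 was -9.24. Nxf3 (3.47), 5730412P04Rik (4.37) and Gprasp2 (4.37) also read within or below the trpnX range in parental cells. Like Tceal7, they could hardly have shown a fall.

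The neighbours that were called had small differences. Armcx5, of the armadillo repeat family also known as ALEX proteins, rose by 0.87 (SE 0.08, limma adjusted p = 9.33e-05), on a probe set that may also detect other transcripts. Tcp11x2 rose by 0.22 (SE 0.06, adjusted p = 0.028) and Gprasp1, which sorts receptors to lysosomes, fell by 0.35 (SE 0.11, adjusted p = 0.0421). The call of Tcp11x2 was lost without parental array 1, 2 or 3 or tumour line 4 or 5 (adjusted p up to 0.201 over the alternatives). That of Gprasp1 was lost without parental array 1 or 3 or tumour line 3 or 5 (up to 0.509). The count of called neighbours was 1 without parental array 1, parental array 3 or tumour line 5. Another probe set of Gprasp1 differed by 0.17 (adjusted p = 0.163) and another of Tcp11x2 by 0.05 (adjusted p = 0.772).

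**Figure D3:**
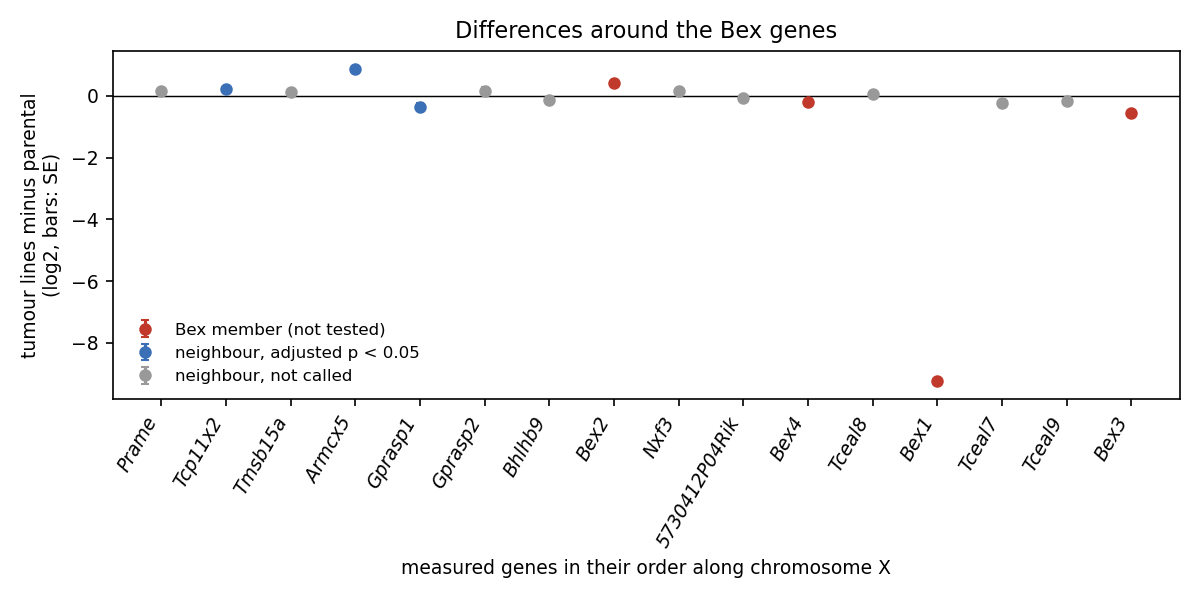
Difference between tumour lines and parental cells (vertical axis, log2, bars show the SE of the fit) for the 16 measured genes in their order along chromosome X (horizontal axis, not to scale). Bex members are red and were not tested, blue neighbours were called and grey ones were not. Bex1 stands at -9.24 between Tceal8 and Tceal7, and the 12 neighbours lie between -0.35 and 0.87. Of these, Gprasp2, Nxf3, 5730412P04Rik and Tceal7 read within or below the trpnX range in parental cells and could hardly have shown a fall.

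Relatives of the family were read next. Of 5 measured Tceal genes and Bex6, 0 rose and 0 fell in the limma fit, with a median of -0.001. At an unadjusted p under 0.05 the count was 1 (Tceal7), and without tumour line 4 limma called 1. Of 10 genes of the related ARMCX and GPRASP families, 1 rose and 3 fell (40%, near the 36.0% of all genes), with a median of -0.01. Armc10 fell by 1.11 (SE 0.10, adjusted p = 6.25e-05) and Armcx4 was lower too (-0.57, SE 0.15, adjusted p = 0.0169). Armcx4 was not called without parental array 1 (adjusted p = 0.0626) or parental array 2 (0.0622), and without parental array 1 the list's count was 2.

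The receptor side of the pathway changed in single genes. Of 15 measured neurotrophins, receptors and adaptors of p75, 3 rose and 3 fell (40%, also near that share), with a median of 0.105. Ngfr, the receptor that BEX1 and BEX3 bind, was low in parental cells (5.40 ± 0.15), in the array labelled GFP-transfected (5.56) and in tumour lines (5.36 ± 0.19), and was not called (-0.04, SE 0.12, adjusted p = 0.846). Ntrk3, the receptor for neurotrophin 3, rose from 5.16 ± 0.16 to 7.09 ± 0.36 (1.93, SE 0.18, adjusted p = 8.6e-05). Other probe sets of Ntrk3 differed by 0.06 to 1.11, and the mean of all its probe sets by 0.55. Sorcs2, a partner of p75 in proneurotrophin signalling, fell from 7.66 ± 0.18 to 6.26 ± 0.17 (-1.41, SE 0.12, adjusted p = 4.39e-05), and it was also lower in the array labelled GFP-transfected (5.96). Irak1, a kinase that can act downstream of p75, rose by 0.84 (SE 0.13, adjusted p = 0.00117).

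Genes of the NF-kappaB pathway, which p75 and BEX proteins can feed into, mostly rose. Of 14 measured, 8 rose and 0 fell (57.1%, beside 16.6% of all genes that rose and 36.0% called in either direction), with a median of 0.447. Most of the list was bright, and bright genes were called more often. Above the median level limma called 7 of 12 genes of the list, beside 5319 of 9096 of all genes in either direction. The inhibitor-like regulator gene Nfkbiz rose from 10.11 ± 0.13 to 12.04 ± 0.25 (1.93, SE 0.14), the apoptosis inhibitor gene Birc3 from 6.63 ± 0.30 to 8.50 ± 0.20 (1.88, SE 0.16) and Ikbkg, the regulatory subunit of the IKK kinase, from 8.51 ± 0.11 to 10.35 ± 0.07 (1.84, SE 0.08). Their limma adjusted p-values were 1.95e-05, 4.21e-05 and 9.84e-07. Another probe set of Birc3 differed by 0.14 and was not called (adjusted p = 0.362), and the mean of both by 1.01. The other probe sets of Ikbkg differed by 0.61 to 1.33, and the mean of all by 1.10. In the array labelled GFP-transfected these genes differed from parental cells by -0.48, -0.06 and 0.31.

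Among 7 described binding partners of BEX proteins, 0 rose and 2 fell (28.6%, beside 36.0% of all genes). Ldb1, the LIM-binding partner of LMO2, fell from 9.74 ± 0.08 to 8.89 ± 0.23 (-0.84, SE 0.12, adjusted p = 0.000869). Tsc1, which encodes hamartin and was reported to bind BEX3, fell from 9.53 ± 0.10 to 8.87 ± 0.15 (-0.66, SE 0.10, adjusted p = 0.000964), and another of its probe sets differed by -0.18 and was not called (adjusted p = 0.45), with a mean over its probe sets of -0.39. Lmo2 (5.44 ± 0.25 and 5.63 ± 0.18) and Sirt2 (9.84 ± 0.03 and 9.68 ± 0.10) were not called (limma adjusted p = 0.343 and 0.136). Omp, the olfactory marker protein gene, and Ywhae, a 14-3-3 gene, were not called either (0.836 and 0.971).

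**Figure D4:**
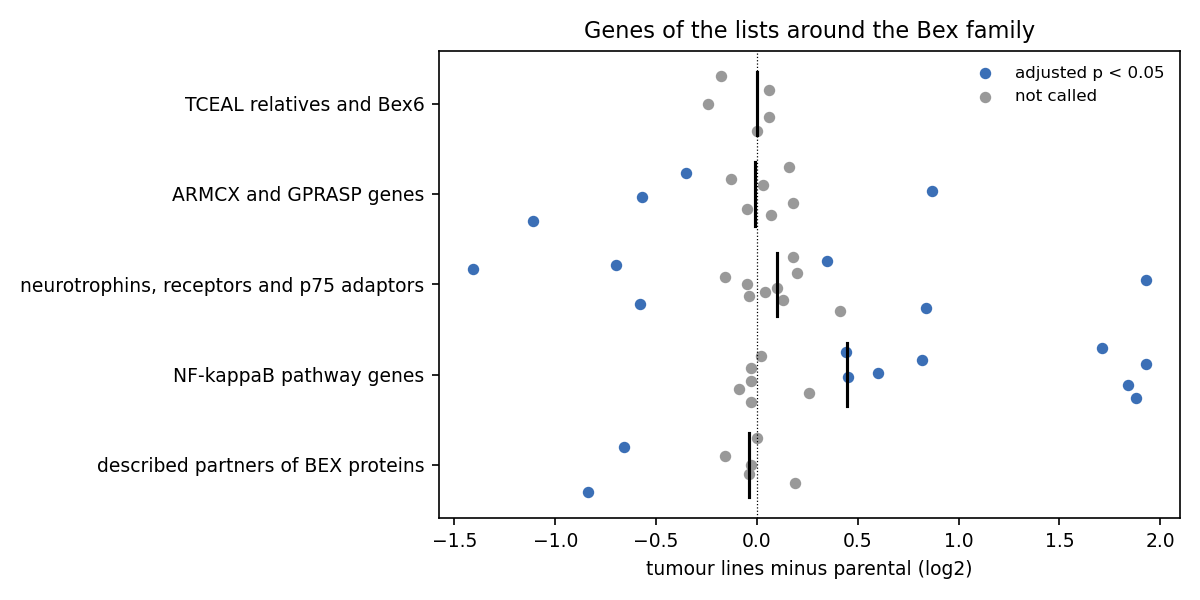
Difference between tumour lines and parental cells (horizontal axis, log2) for each gene of 5 lists (vertical axis). Points are genes, blue where limma's adjusted p was under 0.05 and grey otherwise, and black bars are list medians. The NF-kappaB list has its median at 0.447 with 8 of 14 genes blue and to the right, while the lists of relatives and partners centre near 0.

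The array labelled GFP-transfected was compared with parental cells over the same lists. Limma called 16.1% of all genes in this comparison, 7.43% higher and 8.66% lower, and 30.3% between tumour lines and that array. Of the 15 measured neurotrophin and p75 genes, 0 were higher and 6 lower in that array than in parental cells, and of the 10 ARMCX and GPRASP genes 0 were higher and 3 lower. Of the 14 NF-kappaB genes, 2 were higher and 1 lower, and of the 12 chromosome X neighbours 0 were higher and 1 lower. The fibroblast markers were lower in it as well, 7 of 10, with a median of -1.84, and their part in these differences was not tested.

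Markers of other cell types were read beside these differences. Of 14 neuronal genes, 2 rose and 3 fell (35.7%, beside 36.0% of all genes, median -0.025). The neuronal tubulin gene Tubb3 fell from 9.44 ± 0.15 to 5.71 ± 0.13, while Map2 rose by 2.55 (SE 0.21) and Gap43 by 2.22 (SE 0.45), with limma adjusted p-values of 0.00497 or lower. Other probe sets of Map2 differed by less (0.12 to 1.38), and the mean of all by 1.09. Of 12 macrophage and leukocyte markers, 3 rose and 0 fell (25.0%, beside 36.0% of all genes called and 16.6% that rose). Cd14 was up by 1.83 (SE 0.15), Cd68 by 0.80 (SE 0.09) and Lyz2 by 0.49 (SE 0.10). The pan-leukocyte gene Ptprc stood in the control range in both groups (4.14 ± 0.24 and 4.08 ± 0.04). The mean level of the leukocyte list was 5.42 to 5.53 in the 3 parental arrays, 5.58 in the array labelled GFP-transfected and 5.74 to 5.80 in the 4 tumour lines. Of 8 endothelial markers, 0 rose and 0 fell by limma (also 0 at an unadjusted p under 0.05), with mean levels of 5.07 to 5.29 and 5.14 to 5.34. Of 10 fibroblast markers, 5 rose and 2 fell (70.0%, beside 36.0% of all genes, median 0.288). Thy1 was up by 4.0 (SE 0.47), Fbln2 up by 3.02 (SE 0.61) and Fap lower (-5.31, SE 0.11). Another probe set of Fbln2 differed by 0.14 and was not called (adjusted p = 0.316), and the mean of both by 1.58. The mean level of this list was 9.0 to 9.14 in the 3 parental arrays, and the 4 tumour lines had 9.46 to 10.20. The part of other cell types in the pathway differences was not tested.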

How the data were processed

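RNA of 8 samples was hybridised to 1 Affymetrix array each. For each probe set the authors deposited 1 log2 value an array, computed with RMA, per the submitters' processing notes, which also name Partek. RMA pulls weak signals towards a floor and sets all arrays to 1 distribution. This understates differences of dim genes and hides a change in total RNA. No genome build is given here by the sources, and detection calls and probe sequences were not analysed here. Whether transcripts of other members bind a Bex probe set was therefore not tested.

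Groups came from the source names. Of 45101 probe sets, 34945 had 1 gene symbol, 932 several, 9160 none and 64 were controls. Each of 18193 genes took its probe set of highest mean. Limma (version 3.58.1, R 4.3.3) was fitted with 1 coefficient per group over all 8 arrays, with Benjamini-Hochberg adjustment over all genes, two-sided, and calls at an adjusted p under 0.05. The single array labelled GFP-transfected was assumed to vary like the others. The script was first tested on simulated data. The number of arrays limits the precision.

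Members and lists were chosen with earlier results of these data known. Named genes were the members, up to 3 called genes of largest difference per list, 8 genes named whatever the test (Mycn and the described partners), and the 3 genes most like a member whose SD exceeded 0.5. Lists were textbook sets. The genes not measured among them were not analysed here. Neighbours were genes within 15 positions in the RefSeq table (GRCm38.p6). Promoters were aligned with Biopython (version 1.88, local, match 1, mismatch -2, gap opening -4, extension -1), and the motifs were chosen after the windows had been read. Alternatives were other probe set rules, normalizations, variance priors and level filters, each replicate left out, and, added after seeing the data, the fit without the array labelled GFP-transfected.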

Additional observations from a re-analysis of the deposited data

Results flagged for a closer look

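Among 38 genes checked over the 4 tumour lines, 5 had 1 line far from the others, while chance gives about 1 in 20. None was a Bex member. Ngfr, the receptor that BEX1 and BEX3 bind, read 5.08 in tumour line 5 and 5.43 to 5.47 in the others. Irak1 read 11.34 in tumour line 4 and 11.72 to 11.77 in the others. Cd68 read 6.30 in tumour line 4 and 6.58 to 6.62 in the others. Omp read 6.49 in tumour line 4 and 6.52 in the others, a gap of no practical size. Ywhae read 12.93 in tumour line 3 and 12.79 to 12.80 in the others.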

How the results depend on the processing

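Of the 92 values for the members under other settings, 91 moved by less than the spread between replicates. The exception was Bex1 in the array labelled GFP-transfected minus parental cells, 0.51 as reported and 0.53 when arrays were centred on their medians, where the parental SD is 0.01. Many of the 92 values could not have moved beyond that spread. Leaving out 1 array cannot shift a group mean by more than the SD of its group. Each member has 1 probe set, so the mean of all probe sets could not differ. Leaving out 1 array at a time gave -9.29 to -9.22 for Bex1 in tumour lines minus parental cells, 0.33 to 0.48 for Bex2, -0.60 to -0.51 for Bex3 and -0.27 to -0.16 for Bex4. With every probe set tested singly, more features were tested and limma called 11843 for tumour lines minus parental cells (6547 genes as reported), 5015 for the array labelled GFP-transfected minus parental cells (2927) and 10117 for tumour lines minus that array (5514). Of the 111 genes in the lists, 40 were called, beside 36.0% of all genes. Above the median level, where fewer genes were tested, 26 of 52 list genes were called, beside 5319 of 9096 of all genes. Without the array labelled GFP-transfected the counts were 6547 and 40. The count for neighbours on chromosome X fell from 3 to 1 under 5 settings, the mean of all probe sets among them, and the leukocyte count was 5 with that mean. Another of the 5 settings was the level filter, under which only 4 neighbours were tested. With 1 value per gene, no called gene among those named reversed its direction under these settings. Single probe sets did for Mycn (-3.53, against 6.74 as reported) and for Gprasp1 (0.17, against -0.35). The small, uncalled differences of Ngfr (-0.12 to 0.06 with 1 array left out), Omp (-0.10 to 0.07) and Ywhae (-0.04 to 0.02) changed sign. No paired analysis was possible because the labels do not pair any parental array with a tumour line. The low signals of Bex2 and Bex4, near or in the control range, limit what their differences show, and RMA compresses them further.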

Other observations

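Several relatives and pathway genes of the Bex family that were not called in tumour lines were lower in the array labelled GFP-transfected, the reverse of Bex1. These genes were chosen after their values were seen, and they rest on 1 array whose brightest Mycn probe set goes against its label. Armcx2, an X-linked armadillo repeat gene, read 12.00 ± 0.09 in parental cells, 6.67 in that array and 11.95 ± 0.08 in tumour lines (-5.33 against parental cells, SE 0.12, limma adjusted p = 3.09e-07). Armcx1 read 8.22 ± 0.08, 4.77 and 8.29 ± 0.39 (-3.45, SE 0.29, adjusted p = 0.000143). Maged1, which encodes a p75-binding protein also called NRAGE, read 11.82 ± 0.05, 10.39 and 11.95 ± 0.20 (-1.43, SE 0.17, adjusted p = 0.000884). Nradd, which encodes a p75-like death domain protein, read 9.25 ± 0.07, 7.90 and 9.29 ± 0.20 (-1.34, SE 0.17, adjusted p = 0.00131). Tceal9, next to Bex3, differed by -0.67 (SE 0.15, adjusted p = 0.0157).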
